A study of Homo sapiens with 6 samples.

Results

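The genes described here were 10 transcription regulators of the SOX and RUNX families, namely SOX4, SOX11, SOX12, SOX5, SOX6, SOX9, RUNX1, RUNX2, RUNX3 and RUNX1T1. A gene was read by the probe sets that list it as their single gene symbol, which gave 35 of the 39341 probe sets and 9 of the 10 genes, among 15277 genes on the array. RUNX1 had no value of its own, since all 7 of its probe sets also list the noncoding RNA LOC100506403. Expression was measured in HFL-1, an established human fetal lung fibroblast line kept in F-12K medium with 10% fetal bovine serum. Cells at 40% confluence received lentivirus carrying human HYAL1, a hyaluronidase, or the control virus CON335, both with 5 μg/mL polybrene and a change of medium after 16 h. Each group had 3 samples, whose RNA was read on PrimeView arrays. The titles call the replicates biological, and whether they came from separate infections or cultures was not given in the sources used here, so p-values measure only the spread between these samples. Values are log2 expression made by RMA, and all differences below are HYAL1-labelled minus control-labelled values on that log2 scale.

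The labels have to be read with care, because HYAL1 ran against them. HYAL1 itself had a log2 value of 4.81, 4.82 and 4.67 on the 3 HYAL1-labelled arrays and of 7.48, 7.49 and 7.46 on the 3 control-labelled arrays. It was therefore lower in every array labelled as overexpressing it (p = 0.10 in a two-sided exact permutation test, which cannot go lower with 3 arrays a side). The supplementary gene table of the study heads the HYAL1-labelled arrays NC and the control-labelled arrays OE. Groups are named by their deposited labels throughout, and each direction turns round if the headings of that table are the right ones. In its overexpressing cells the study reports HYAL1 as higher, and SOX9, RUNX2 and RUNX1T1 as lower. For each of these genes that is the reverse of what the deposited labels give. Arrays had medians of 6.97 to 7.01 and correlated at 0.998 to 0.999. The 9 background probe sets, which match no human transcript, had array medians of 6.69 to 6.90 and were 0.02 to 0.14 higher in the HYAL1-labelled arrays. Single background values ran from 4.46 to 11.27, and their medians lay close to the medians of the whole arrays. Above or below background means against the background median of the array, so a gene below it is not shown to be absent.

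SOX proteins bind DNA in the minor groove through an HMG box and bend it. SOX4, SOX11 and SOX12 form the SOXC group of progenitor cells, SOX5 and SOX6 the SOXD group, which lacks an activation domain, and SOX9 is the SOXE factor that works with SOX5 and SOX6 on cartilage genes. RUNX proteins bind DNA through the Runt domain together with CBFB. RUNX1 is required for blood stem cells, RUNX2 for osteoblasts, and RUNX3 acts in lymphocytes and sensory neurons. RUNX1T1 has no Runt domain and is a corepressor, best known from its fusion with RUNX1 in leukemia. In the mouse, Sox9 marks the distal epithelial buds and the airway cartilage of the fetal lung.

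Of the 9 measured genes, 8 were higher in the HYAL1-labelled arrays, against 57.3% of all genes, and SOX5 was the exception. SOX4, SOX9 and RUNX1T1 passed the test (limma, adjusted p under 0.05 over all genes), all 3 in that direction, and no member passed in the other. Over all genes, 0.445% passed toward the HYAL1-labelled arrays and 1.21% toward the control-labelled arrays. The median difference was 0.19 over the members and 0.01 over all genes. Without adjustment, 6 of the 9 had a p under 0.05 toward the HYAL1-labelled arrays, against 9.69% of all genes. In 8 of the 9 every HYAL1-labelled array lay above every control-labelled array, against 14.1% of all genes, though for RUNX3 the gap was 9e-05. With all genes cut into 10 classes of equal size by mean level, the median difference of a class lay between 0.0015 and 0.025. The study's own list of changed genes names most of these factors, so their number is not independent evidence. The study called RUNX2 and SOX9 changed after Benjamini-Hochberg adjustment, and found RUNX1T1 changed by quantitative PCR as well. RUNX2 did not pass in the main test here. In bulk RNA, fewer cells that express a gene and less RNA per cell cannot be told apart.

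**Figure D1:**
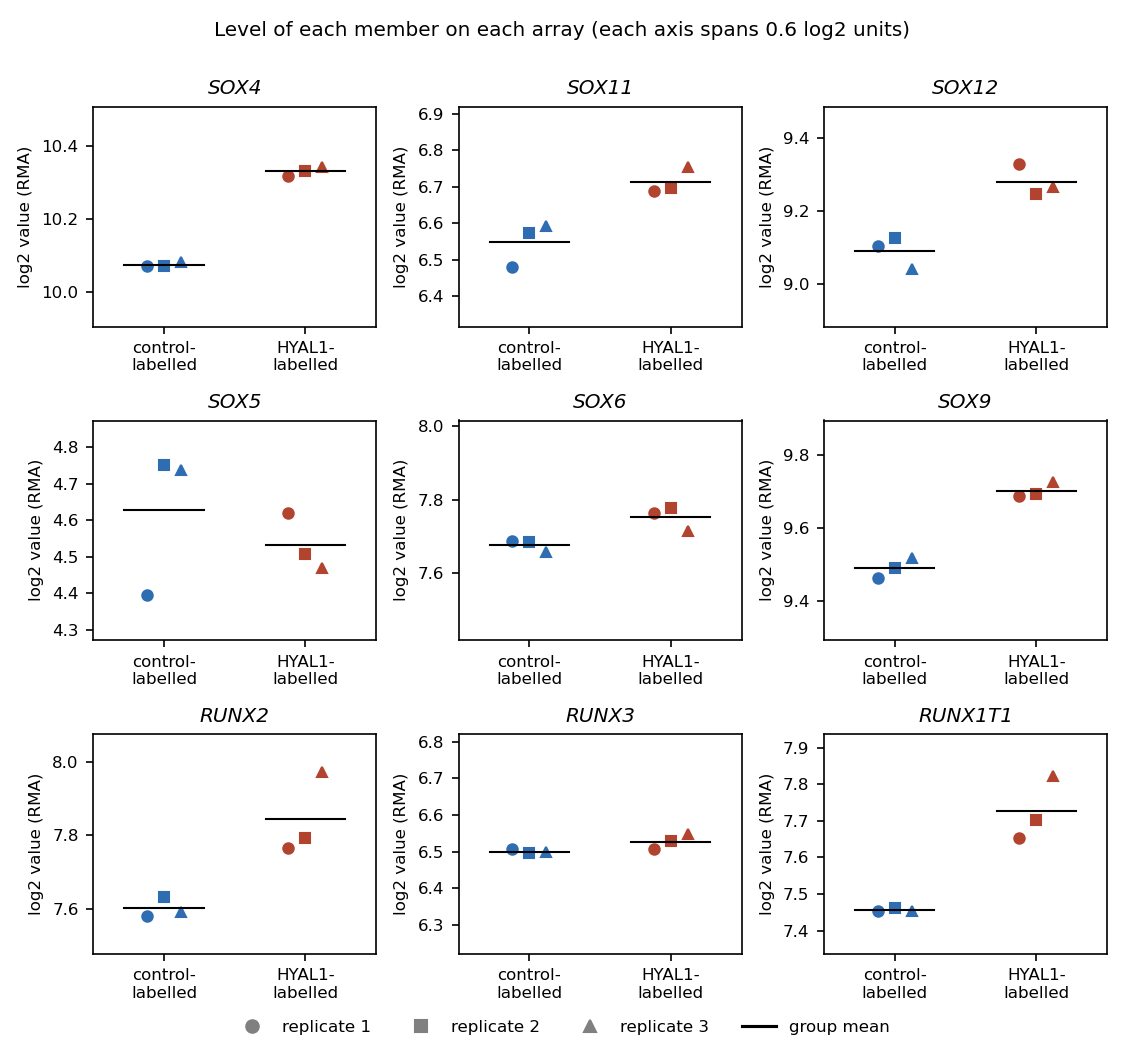
Log2 value (RMA) of each of the 9 measured genes on each of the 6 arrays, by group, with symbols for the replicate number and bars for the group means. The groups are apart in SOX4, SOX9 and RUNX1T1, nearly touch in RUNX3 and overlap in SOX5.

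**Figure D2:**
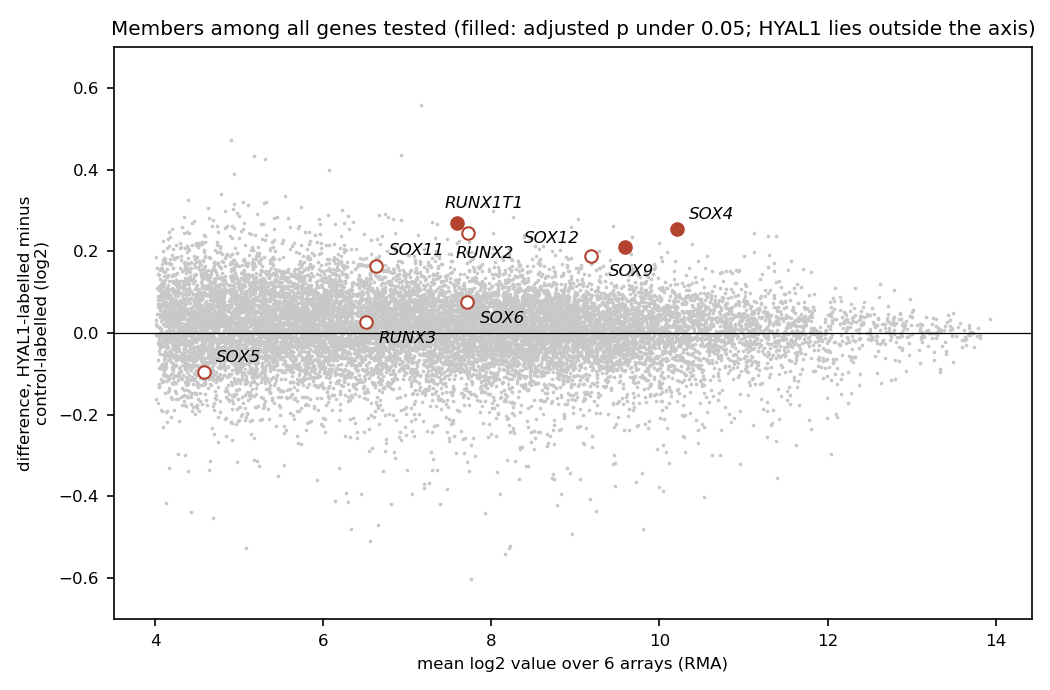
Difference between the groups against mean log2 value for the 15277 genes (grey) and the 9 members (circles, filled where the adjusted p was under 0.05). SOX4, SOX9, SOX12, RUNX2 and RUNX1T1 lie at 0.19 to 0.27, and SOX5 at -0.10.

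SOX4, an intronless gene active in embryonic progenitors and in many tumors, was the member with the lowest p. Its log2 value was 10.32, 10.33 and 10.34 on the HYAL1-labelled arrays and 10.07, 10.07 and 10.08 on the control-labelled arrays. The spread within a group was small beside the gap of 0.23 between the groups. The difference was 0.25 (95% interval 0.19 to 0.32, SE 0.0285, n = 3 per group), or 1.19-fold, with an adjusted p = 0.0127 by limma, rank 43 of all genes by p. All 7 probe sets of SOX4 were separated in this direction, with differences from 0.20 to 0.35. Of these, 4 passed when all probe sets were tested (adjusted p = 0.0163 to 0.0881 over the 7).

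SOX12 and SOX11, the other SOXC factors, lay on the same side with smaller differences and did not pass. SOX12, widely expressed at modest levels, read 9.33, 9.25 and 9.27 on the HYAL1-labelled arrays and 9.10, 9.13 and 9.04 on the control-labelled arrays. The groups were separate, and the difference of 0.19 (95% interval 0.10 to 0.28, SE 0.0383) had an adjusted p = 0.0638 by limma. SOX11, a factor of embryonic neurons and of mantle cell lymphoma, read 6.69, 6.70 and 6.75 on the HYAL1-labelled arrays and 6.48, 6.57 and 6.59 on the others. All 6 of its values were lower than the background median of their array, so its difference of 0.16 (95% interval 0.07 to 0.26, adjusted p = 0.108) was measured at a low level. Among the 3 probe sets of SOX12 and the 4 of SOX11, all 7 ran toward the HYAL1-labelled side, by 0.13 to 0.19 for SOX12 and 0.07 to 0.23 for SOX11, and 0 passed.

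The bases before the start sites of SOX4 and SOX12 are shown because these SOXC genes differed in the same direction at levels above background, and the distal start of RUNX2 because it holds matches to the families' own motifs. Sequences are from RefSeq (GRCh38.p14), 5′ to 3′ on the strand of the gene, and end at the base before the annotated start. Capitals mark matches to the RUNX core TGTGGT or the SOX core ACAAT, searched on both strands.
SOX4 (chr6:21593501-21593750, plus strand): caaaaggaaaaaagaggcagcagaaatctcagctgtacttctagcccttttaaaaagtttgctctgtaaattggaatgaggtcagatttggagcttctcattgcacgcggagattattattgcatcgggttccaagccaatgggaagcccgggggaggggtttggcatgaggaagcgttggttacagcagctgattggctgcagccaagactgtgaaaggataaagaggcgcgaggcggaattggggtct
SOX12 (chr20:325302-325551, plus strand): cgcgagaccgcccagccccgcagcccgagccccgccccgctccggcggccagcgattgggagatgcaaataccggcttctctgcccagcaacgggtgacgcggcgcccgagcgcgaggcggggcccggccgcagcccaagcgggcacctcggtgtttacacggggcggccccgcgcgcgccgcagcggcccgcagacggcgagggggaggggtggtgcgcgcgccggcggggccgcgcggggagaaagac
RUNX2, distal start (chr6:45328080-45328329, plus strand): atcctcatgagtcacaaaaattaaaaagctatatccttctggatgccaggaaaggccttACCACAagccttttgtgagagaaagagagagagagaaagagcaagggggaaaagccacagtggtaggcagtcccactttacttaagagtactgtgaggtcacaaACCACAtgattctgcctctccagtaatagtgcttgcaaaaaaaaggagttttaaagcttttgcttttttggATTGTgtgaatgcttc

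In these 250 bases SOX4 and SOX12 held neither motif. The distal start of RUNX2 held 2 RUNX matches, which begin 191 and 87 bases before the start, and 1 SOX match 16 bases before it. The motifs do not overlap there. Among 35116 windows of the same length, 11.0% held the RUNX core and 24.6% the SOX core, so such matches are common and are given as a description. The windows of SOX4 and SOX12 differed in composition, with 48.8% and 79.2% G and C and with 8 and 42 CpG dinucleotides, where the median window had 58.0% and 11. The second listed start of RUNX2 held neither core. Windows were found for 7 of the 10 genes. Among those not shown, windows of SOX5 and SOX6 also held the SOX core, and windows of SOX6 and RUNX3 the RUNX core.

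SOX9, which drives cartilage formation and testis determination, was higher in the HYAL1-labelled arrays. Its log2 value was 9.69, 9.69 and 9.73 there and 9.46, 9.49 and 9.52 in the control-labelled arrays, a gap of 0.17 between the groups. The difference was 0.21 (95% interval 0.14 to 0.28, SE 0.0315, n = 3 per group), or 1.16-fold, with an adjusted p = 0.028 by limma. A second probe set differed by 0.21 and did not overlap (adjusted p = 0.0646 among all probe sets). The third differed by 0.10 with overlapping groups (adjusted p = 0.385).

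SOX5 and SOX6, the partners of SOX9 on cartilage genes, did not follow it clearly. SOX6 read 7.76, 7.78 and 7.72 on the HYAL1-labelled arrays and 7.69, 7.69 and 7.66 on the control-labelled arrays. Its difference of 0.08 (95% interval -0.00005 to 0.15) had an adjusted p = 0.287, and its 6 probe sets lay between 0.01 and 0.12, none of which passed. SOX5 read 4.62, 4.51 and 4.47 on the HYAL1-labelled arrays and 4.40, 4.75 and 4.74 on the control-labelled arrays, with overlapping groups. The control-labelled replicate 1 was the lowest of the 6 arrays for SOX5, and the other control-labelled arrays were the highest. Its difference of -0.10 (95% interval -0.32 to 0.13, adjusted p = 0.663) came from a level below the background median on every array. The other SOX5 probe set, also below the background median, ran the same way by -0.19 with separate groups and did not pass (adjusted p = 0.241 among all probe sets).

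RUNX2, the osteoblast factor, was higher in the HYAL1-labelled arrays with groups that did not overlap, but did not pass. It read 7.77, 7.79 and 7.97 there and 7.58, 7.63 and 7.59 in the control-labelled arrays. Replicate 3 of the HYAL1-labelled arrays stood above the rest, and the SD of that group was 0.112 against 0.0265. The difference was 0.24 (95% interval 0.11 to 0.38, SE 0.0568, n = 3 per group), or 1.18-fold, with an adjusted p = 0.0915 by limma. Without that array it was 0.18 (adjusted p = 0.116 by limma). The other RUNX2 probe set lay below the background median on all arrays and differed by 0.06 with overlapping groups (adjusted p = 0.747).

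RUNX3, the lymphocyte factor, did not pass. It read 6.51, 6.53 and 6.55 on the HYAL1-labelled arrays and 6.51, 6.50 and 6.50 on the control-labelled arrays, below the background median on every array. The difference of 0.03 had a 95% interval of -0.04 to 0.10 (adjusted p = 0.681 by limma), at a level where a change can be understated. Its other probe sets differed by 0.06 and -0.11, so the 3 did not share a direction.

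RUNX1T1, the corepressor also called ETO, was higher in the HYAL1-labelled arrays. It read 7.65, 7.70 and 7.82 on the HYAL1-labelled arrays and 7.45, 7.46 and 7.45 on the control-labelled arrays. The gap between the groups was 0.19, and the HYAL1-labelled arrays were spread more widely (SD 0.0861) than the control-labelled ones (SD 0.00472). The difference was 0.27 (95% interval 0.16 to 0.38, SE 0.0463, n = 3 per group), or 1.21-fold, with an adjusted p = 0.0422 by limma. All 5 probe sets of RUNX1T1 ran toward the HYAL1-labelled side, by 0.11 to 0.27, and 4 of them had separate groups. Among all probe sets 2 of the 5 passed (adjusted p = 0.0406 and 0.0461), and 1 of these lay below the background median on every array.

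Over all 35 probe sets of the members, 32 were higher in the HYAL1-labelled arrays, against 21868 of all 39268 probe sets tested. Of the 35, 22 were separated in that direction, against 13.2% of all probe sets. There were 7 that passed in that direction, against 0.346% of all probe sets, and 0 in the other. They belonged to SOX4 (4), RUNX1T1 (2) and SOX9 (1). Probe sets of the same gene share their RNA and partly their sequence, so they are not independent readings. The 3 that ran the other way were both probe sets of SOX5 and 1 of RUNX3.

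**Figure D3:**
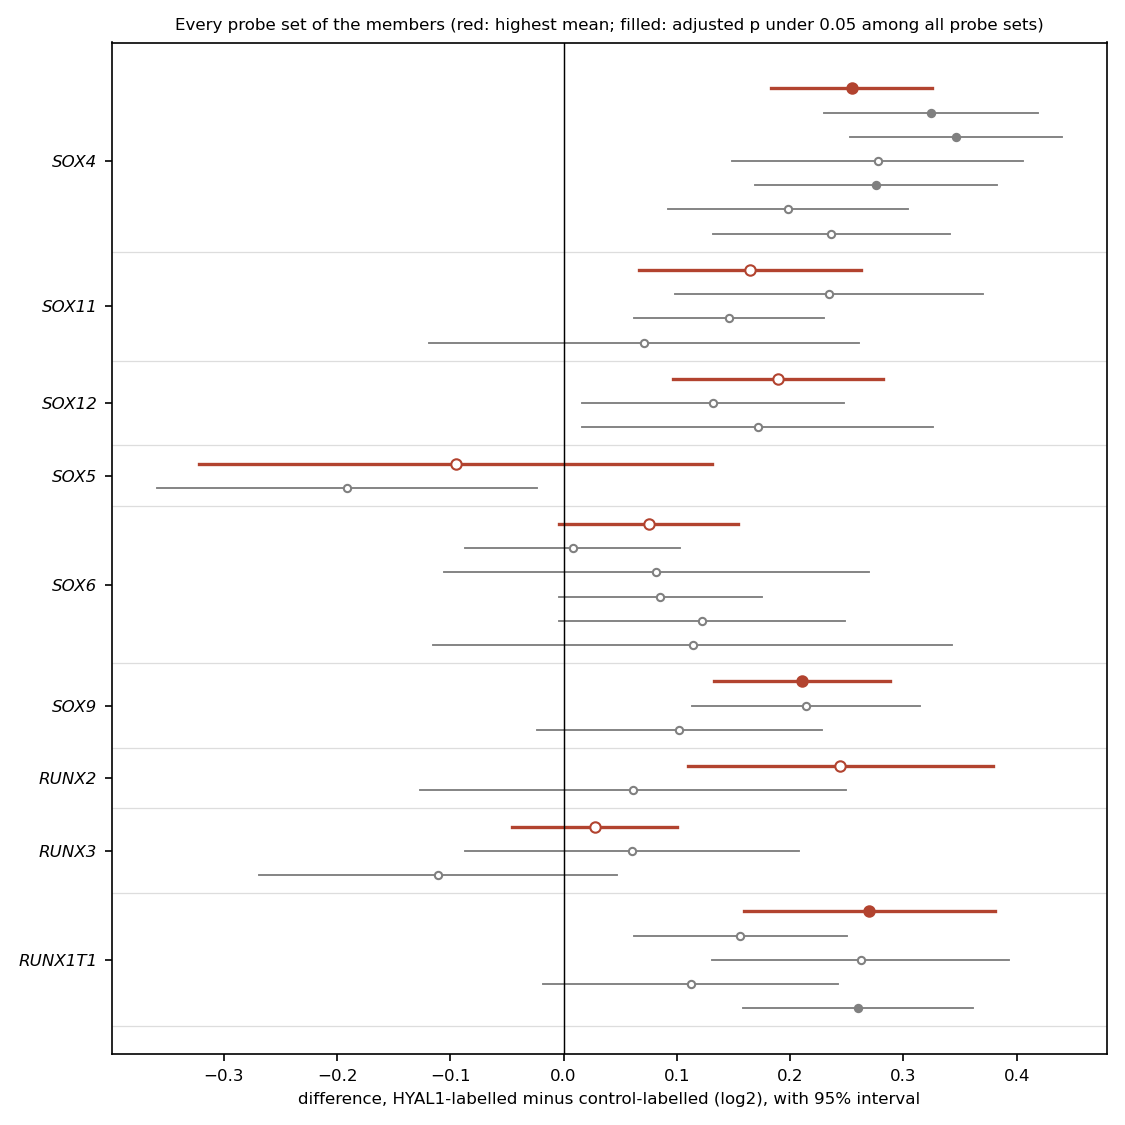
Difference between the groups (log2, HYAL1-labelled minus control-labelled) with its 95% interval for the 35 probe sets of the members, ordered within each gene by control-labelled level, highest first (red for the probe set of highest mean, filled where the adjusted p among all probe sets was under 0.05). All 7 intervals of SOX4 lie above 0, and the 2 probe sets of SOX5 lie below it.

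Within a group the arrays were not ordered alike for every gene. Replicate 3 was the highest of the HYAL1-labelled arrays for 6 of the 9 genes and replicate 1 the lowest for 6. Among the control-labelled arrays, replicate 1 was the lowest for 6. The genes whose 6 values followed those of SOX4 most closely were ZFP36L2 (r = 0.999), SQSTM1 (r = 0.998) and BAG1 (r = 0.997), followed by MARCKSL1 and SFSWAP (r = 0.996 for each), a description over 6 arrays that all share the group difference.

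Genes tied to the SOXC factors in other tissues were partly higher in the HYAL1-labelled arrays. Of 8 measured, 2 passed in that direction and 0 in the other, against 0.445% and 1.21% of all genes. Their median difference was 0.13 against 0.01 over all genes. The list was chosen with earlier results of these data known, so these figures are not independent evidence. TUBB3, a neuronal tubulin that SOX4 and SOX11 activate in neurons, was higher by 0.24 (SE 0.0314, adjusted p = 0.0213 by limma). EZH2, the methyltransferase of Polycomb and a SOX4 target in mouse mammary cells, was higher by 0.27 (SE 0.0446, adjusted p = 0.0383), at a level below the background median on every array. TEAD2, another SOXC target in the mouse, stood 0.12 higher and did not pass (adjusted p = 0.121). MARCKSL1, a substrate of protein kinase C, stood 0.15 higher (adjusted p = 0.0559). STMN1, which destabilises microtubules, and PLXNB1, a semaphorin receptor, differed by -0.02 and -0.0022.

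Cartilage genes of the SOX9, SOX5 and SOX6 trio were mostly at background. Of the 14 measured, 12 lay below the background median on all arrays. With limma, 0 passed toward the HYAL1-labelled arrays and 1 toward the control-labelled arrays, the same counts as with the trend setting. In these directions 2 and 1 had an unadjusted p under 0.05, against 1481 and 1179 of all 15277 genes. WWP2, a ubiquitin ligase and, with COL11A1, 1 of the 2 above background, differed by 0.07 with separate groups (adjusted p = 0.285). COL11A1, a fibrillar collagen chain that fibroblasts also make, fell by 0.32 on the log2 scale (95% interval -0.39 to -0.24, adjusted p = 0.0107 by limma). It read 9.32, 9.33 and 9.27 on the HYAL1-labelled arrays and 9.60, 9.63 and 9.64 on the control-labelled arrays. COL2A1 and ACAN, the defining cartilage matrix genes, were below background on every array and differed by -0.0028 and -0.014. The median of the list was -0.01.

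Of 7 bone genes that RUNX2 binds, 0 passed in either direction, also with limma's trend setting, with a median difference of 0.07. An unadjusted p under 0.05 by limma was found for 2, both toward the HYAL1-labelled arrays, against 9.69% of all genes. SPP1, which encodes osteopontin, stood 0.11 higher on the HYAL1-labelled side (adjusted p = 0.222), VEGFA, the angiogenic factor, 0.09 higher (adjusted p = 0.233), and SP7, the osteoblast factor downstream of RUNX2, 0.08 higher (adjusted p = 0.454). SPP1 was read below the background median. It passed at 0.29 when its lowest-p probe set was taken instead (adjusted p = 0.0163), a choice that favors large differences.

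Partners and corepressors of RUNX proteins showed 0 calls among 20 measured. At an unadjusted p under 0.05 by limma, 2 ran toward the HYAL1-labelled and 2 toward the control-labelled arrays, against 1481 and 1179 of all 15277 genes. With the trend setting 1 passed toward the HYAL1-labelled and 2 toward the control-labelled arrays. Of all genes, 1024 passed with that setting, 429 of them toward the HYAL1-labelled arrays. SMURF2, a ubiquitin ligase that targets RUNX proteins, differed by -0.15 (adjusted p = 0.0756) and TLE4, a Groucho corepressor, by -0.17 (adjusted p = 0.084). WWTR1, or TAZ, a coactivator that binds RUNX2, differed by 0.11 (adjusted p = 0.174). Of 10 other SOX genes measured, 0 passed with limma, and all 10 lay below the background median on every array. At an unadjusted p under 0.05 there was 1, toward the HYAL1-labelled arrays, and 0 passed with the trend setting. SOX8, the SOXE relative of SOX9, differed by 0.17 (adjusted p = 0.188). SOX3, a factor of the brain and pituitary, and SOX15 differed by 0.09 and 0.08 (adjusted p = 0.339 and 0.604).

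**Figure D4:**
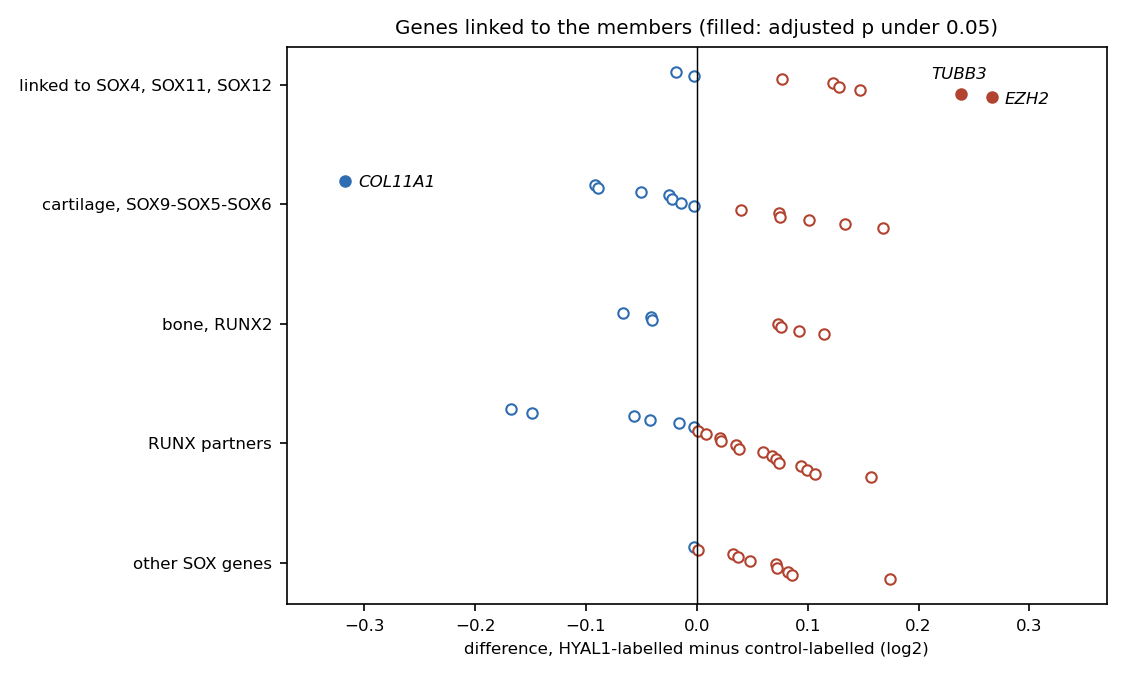
Difference between the groups (log2, HYAL1-labelled minus control-labelled) for the genes of 5 lists tied to the members, red where higher in the HYAL1-labelled arrays and blue where lower, filled where the adjusted p was under 0.05. TUBB3 and EZH2 passed at 0.24 and 0.27 and COL11A1 at -0.32.

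Markers of the labelled cell type were present. Of 14 fibroblast markers, 0 lay below the background median on all arrays. Their mean log2 value was 11.56 to 11.58 on the HYAL1-labelled arrays and 11.61 to 11.65 on the control-labelled arrays, so their mean level ran opposite to most of the SOX and RUNX genes. COL1A1 passed and fell by 0.27 (adjusted p = 0.0152 by limma). In all, 6 of the 14 had an unadjusted p under 0.05 toward the control-labelled arrays, COL1A1, COL1A2, COL3A1, THY1, LUM and FAP, and 0 toward the HYAL1-labelled arrays. Of all 15277 genes, 1179 had one toward the control-labelled arrays. With the trend setting 6 markers passed toward the control-labelled arrays and 0 the other way. Of all 15277 genes, 1024 passed with that setting, 429 of them toward the HYAL1-labelled arrays. The part of this shift in the members' differences was not tested. Markers of other cell types were mostly dim. Below the background median on all arrays were 4 of 7 epithelial, 5 of 6 endothelial, 2 of 4 leukocyte and 5 of 6 cartilage and bone markers, and 0 of them passed with limma (1 at an unadjusted p under 0.05, KRT18, a keratin, which differed by -0.15 and passed with the trend setting).

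The calls did not hold with fewer arrays. Leaving out any 1 of the 6 arrays ended all 3 calls, with an adjusted p of 0.0508 to 0.0900 for SOX4, 0.0824 to 0.124 for SOX9 and 0.0759 to 0.140 for RUNX1T1. The differences kept their direction at 0.25 to 0.26, 0.20 to 0.22 and 0.22 to 0.31. Calls over all genes fell as well, from 253 to between 15 and 52. With the trend setting, in which the prior variance depends on level, 5 of the 9 passed, with SOX12 (adjusted p = 0.00206) and RUNX2 (adjusted p = 0.0077) added, against 2.81% of all genes.

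**Figure D5:**
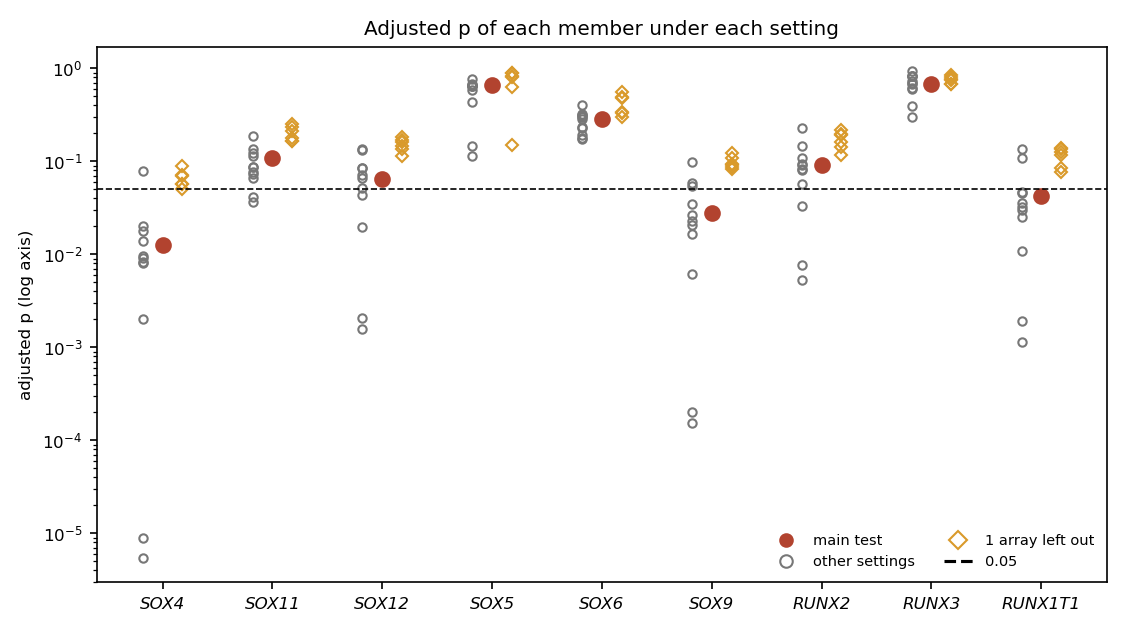
Adjusted p (log axis) of each of the 9 genes in the main test (red), under the other settings (grey circles) and with 1 array left out (orange diamonds), with a dashed line at 0.05. The diamonds of SOX4 lie between 0.0508 and 0.0900, all above the line.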

How the data were processed

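The authors deposited log2 expression values for 6 PrimeView arrays, made with RMA, which corrects background, normalizes quantiles and summarises probes. Affymetrix Power Tools stands in the submitters' processing notes, and its version was not given in the sources used here. Of the probe sets, 36097 have a single gene symbol, 1397 several and 1847 none, and 73 are controls. A gene was read by its probe set of highest mean. The probe set of HYAL1 carries no symbol and was found by its values in the study's supplementary table (tolerance 0.001). Groups were compared with limma 3.58.1 in R 4.3.3 (empirical Bayes, 1 prior variance, prior degrees of freedom 3.25), with Benjamini-Hochberg adjustment over 15277 genes, or over 39268 probe sets without controls, at a threshold of 0.05. This comparison was tested on simulated data with independent normal noise. That check set no requirement for changes as small as those of the members. Tables and plots used Python 3.11.15.

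The members and the gene lists were chosen with earlier results of these data known. The text names every member, the genes of each list that passed or else the 3 of lowest p, and the 5 genes most like SOX4. TEAD2, STMN1, PLXNB1, COL2A1, ACAN, WWP2, KRT18 and the fibroblast markers were chosen after seeing their values. Alternatives were other probe set rules, a filter on the lowest 30% of levels, renewed quantile normalization, median centring, trend and robust trend, weights per array, the unpaired t-test that a figure legend of the study names, all probe sets as tested features, the replicate number as a block and each array left out. The number of arrays limits the precision.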

Additional observations from a re-analysis of the deposited data

How the results depend on the processing

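Of the 9 members, 3 passed in the main test, and 3 or 4 did under the alternatives not named here. The number was 6 without the lowest 30% of genes, a filter that removed SOX5 from the test. It was 5 with the trend and with the robust trend, 1 (SOX4) with the unpaired t-test and 0 without any 1 array (lowest and highest 0). Counts over all genes under these settings are given further on in this paragraph. Averaging the 3 probe sets of SOX9 left it with an adjusted p = 0.055. Of the 35 probe sets of the members, 7 passed, 15 with either trend, 1 with the t-test and 0 without any 1 array. Without the lowest 30% of probe sets, 16 of the 24 that remained passed. The share of all probe sets that passed under these alternatives was not counted. Of the genes of the 5 lists, 2 passed toward the HYAL1-labelled and 1 toward the control-labelled arrays. These counts were 6 and 2 by the probe set of lowest p, 5 and 3 with either trend, 1 and 1 after renewed quantile normalization, 3 and 3 without the lowest 30% of genes, and 0 and 0 to 1 without 1 array. With the replicate block all these counts were 0, and 1 gene of the whole table passed. Whether the replicate numbers pair the arrays was not given in the sources used here. Deviations from the group means correlated at 0.0629, -0.0229 and 0.235 for same-numbered arrays and at -0.234 to 0.161 for the others. Deviations from means of 3 arrays depend on each other, so these values cannot decide whether the arrays are paired. RUNX3 turned to -0.0076 with its probe sets averaged and to -0.11 by the probe set of lowest p, and SOX15 ranged from -0.0053 (without HYAL1-labelled replicate 1) to 0.128 without 1 array. COL11A1 missed the threshold in 3 of 6 fits without 1 array (adjusted p up to 0.0673), COL1A1 in 5 (up to 0.0931), and TUBB3 and EZH2 in all 6 (up to 0.0959 and 0.149). Over all genes 253 passed, and 15 to 52 did without 1 array, 90 with the t-test, 406 with array weights, 673 without the lowest 30% of genes, 728 by the probe set of lowest p, 1024 with the trend and 1079 with the robust trend. The cause of these changes was not tested. Where SOX5, SOX11, RUNX3 and EZH2 lay below the background median, the signal limits what their differences can show.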

Other observations

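The 7 probe sets that list RUNX1 together with LOC100506403 cannot be assigned to either gene and entered no count of members. They were tested only in the fit over all probe sets. Their differences did not share a direction. They ran from -0.15 to 0.13 on the log2 scale (HYAL1-labelled minus control-labelled), 2 were higher in the HYAL1-labelled arrays, both with separate groups, and 5 were lower, 1 of them with separate groups (-0.13, adjusted p = 0.175 by limma among all probe sets). The probe set with the highest level read 9.05, 9.12 and 9.12 on the HYAL1-labelled arrays and 8.98, 8.95 and 8.99 on the control-labelled arrays, a difference of 0.13 (adjusted p = 0.154 by limma among all probe sets). The next read 8.81, 8.78 and 8.81 against 8.72, 8.69 and 8.68, a difference of 0.10 (adjusted p = 0.173 by limma). None of the 7 passed (4 had an unadjusted p under 0.05 in the fit over all probe sets, and these did not share a direction).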
